A study of Rattus norvegicus with 10 samples.

Results

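The S100 genes code for a family of small calcium-binding proteins, and 9 of them were examined here in the neurointermediate lobe of the rat pituitary: S100a1, S100a4, S100a6, S100a8, S100a9, S100a10, S100a11, S100a13 and S100b. They were taken as all probe sets to which the array annotation gives a single gene symbol equal to 1 of these names, which found 1 probe set for each gene, 9 of the 14217 genes with such a probe set on the array. The genes were chosen from results of the same comparison of dehydrated with control rats that is described here, in which S100a6 stood out. Their values in that comparison are therefore given as a description, with no p-value. Of the 9 genes, 7 passed a filter that kept the brighter 60% of probe sets, and S100a8 and S100a9 did not.

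The study asked how gene expression in this lobe differs after water deprivation. Pools of tissue from 5 male Sprague Dawley rats aged 10 to 12 weeks were each hybridised to 1 Affymetrix Rat Genome 230 2.0 array, with 5 control pools and 5 pools of rats that had gone through 3 days of dehydration. The pools held separate animals, errors given here are therefore those between pools, and the number of arrays limits the precision. The design text of the series names the supraoptic nucleus, but its title and all sample descriptions give the neurointermediate lobe, which was followed here. No genotype or drug is named for either group. Melanotroph markers were bright in both groups (all 5 genes with a probe set were kept), and the summed signal of 6 anterior lobe hormone genes ranged from 2574 to 9379 over the 10 pools.

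Most S100 proteins bind calcium through paired EF-hand loops, and most work as dimers that expose a binding surface when calcium rises inside the cell. Through that surface they engage annexins, cytoskeletal proteins and enzymes, and several are also released from cells and bind receptors such as Ager (RAGE) and Tlr4. The neurointermediate lobe joins the neural lobe, where vasopressin and oxytocin axons end among glial cells called pituicytes, to the intermediate lobe with its melanotrophs. S100b protein is widely used as a marker of pituicytes and of other glia, S100a6 is found in fibroblasts, epithelia and some glia, and S100a8 and S100a9 are abundant in neutrophils.

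Every value below is a signal on the linear scale of the deposited table, in which each array had been scaled to a trimmed mean of about 100, so a change is relative to the average probe set. Changes are differences of log2(signal + 5), dehydrated minus control, with the limma standard error (SE), and a probe set passed when its Benjamini-Hochberg adjusted p over all 18625 kept probe sets was under 0.05. Over the whole table, 312 probe sets were higher in the dehydrated group (1.68% of those tested) and 146 were lower (0.784%). The lowest signal level kept by the filter corresponds to 22.4. Correlations between arrays ran from 0.947 to 0.976. RNA integrity was read from the 3′ and 5′ control probe sets for GAPDH and beta-actin. Their mean log2 ratio, 3′ over 5′, was 2.15 ± 0.38 with dehydration and 1.78 ± 0.48 without (SD, n = 5 each, two-sided exact permutation test, p = 0.214, the smallest possible being 0.00794). In such pooled tissue, fewer cells of a type and less RNA per cell cannot be told apart.

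S100a6, also called calcyclin, was about 2.40 times as bright in the dehydrated as in the control group. It was the 1 member of the 7 kept that passed, beside 3.19% of all genes tested that passed in either direction. Its probe set (1367661_at, Entrez gene 85247) read 466.3, 512.9, 615, 500.3 and 438.2 on dehydrated arrays 1 to 5. The control arrays read 187.4, 211, 247.8, 228.6 and 182 in the same way. All 5 dehydrated pools lay above all 5 control pools, with the lowest dehydrated value well over the highest control value. The group means were 507 ± 67.3 and 211 ± 27.7 (SD, n = 5 each), and the log2 change was 1.24 ± 0.10 (SE). Only 10 of the 10593 genes tested had a larger increase. Across the 20 alternative settings the change lay between 1.17 and 1.30 and passed in each of them. The groups did not overlap, with the dehydrated pools higher, for 2.78% of all kept probe sets.

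**Figure D1:**
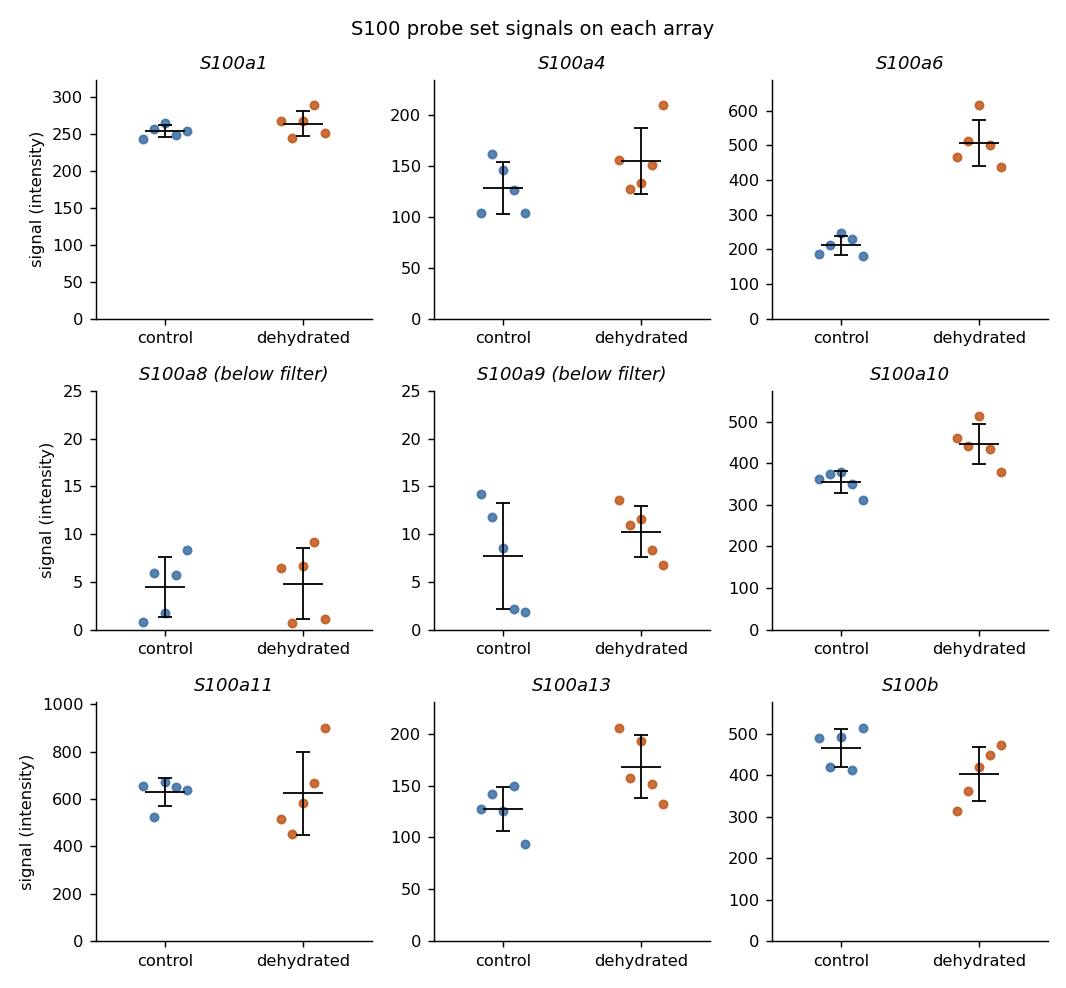
Signal of each S100 probe set (linear scale from 0, arbitrary units) on the 5 control (blue) and 5 dehydrated (orange) arrays, in array order from left to right, with horizontal lines and bars for the mean ± SD; the panels have separate axes. The S100a6 groups lie apart (182 to 247.8 against 438.2 to 615), whereas every other panel has at least 1 dehydrated array level with or inside the control range.

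S100a6 was also read relative to other S100 probe sets of the same array, to describe how far their values moved apart. With each difference set to 0 at its control mean, the log2 difference between S100a6 and S100a10 was 0.76 to 1.00 on the dehydrated arrays and -0.18 to 0.14 on the control arrays. Against S100b the dehydrated arrays lay between 1.01 and 1.69, and the control arrays between -0.35 and 0.29. The same difference against S100a1 was 1.05 to 1.45 with dehydration and -0.21 to 0.17 without. Against S100a4 the dehydrated values spread most widely, from 0.34 to 1.46, with dehydrated array 5 lowest, and the controls ran from -0.33 to 0.12. In all 4 pairings the groups stayed apart. These differences use the contrast on which S100a6 was chosen and carry no test.

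**Figure D2:**
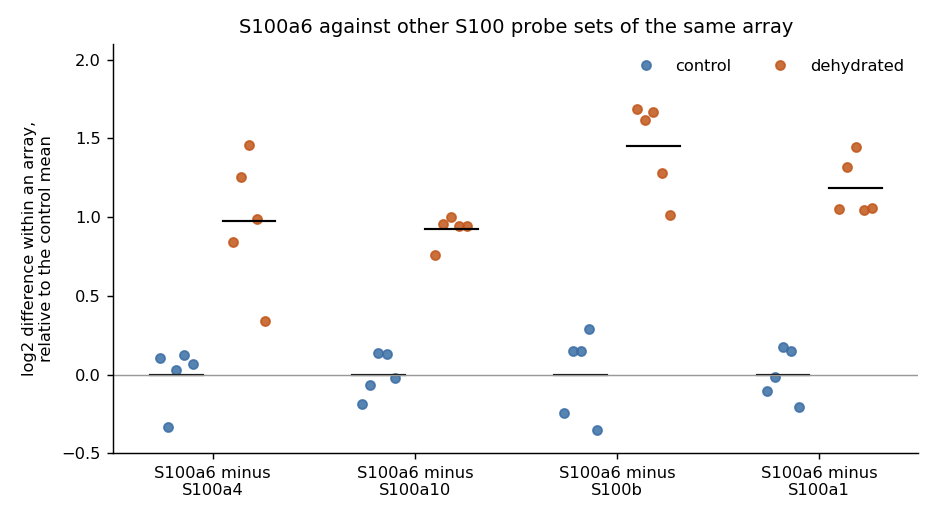
Log2 difference between S100a6 and 4 other S100 probe sets on the same array, shifted so that the control mean of each pairing is 0 (vertical axis, log2 units); points are arrays, blue for control and orange for dehydrated, and black lines are group means. The dehydrated means lie at 0.98 against S100a4, 0.92 against S100a10, 1.45 against S100b and 1.19 against S100a1, and no dehydrated point falls within the control points.

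Most S100A genes sit side by side on rat chromosome 2, and S100a6 lies there next to S100a5 and S100a7a, close to S100a4. The 250 bases before the start of S100a6, of its cluster neighbour S100a4, and of S100b, which lies on chromosome 20 and had a negative change, are shown so that the upstream DNA of the member that passed can be set beside that of members that did not. The sequences are from RefSeq, assembly GRCr8, each written 5′ to 3′ on the strand of its gene, and capitals mark motif matches. The S100a6 window is chr2:178398287-178398536 on the plus strand and lies inside the span that RefSeq gives the gene, the S100a4 window is chr2:178388279-178388528 on the plus strand, and the S100b window is chr20:12381082-12381331 on the minus strand.
S100a6: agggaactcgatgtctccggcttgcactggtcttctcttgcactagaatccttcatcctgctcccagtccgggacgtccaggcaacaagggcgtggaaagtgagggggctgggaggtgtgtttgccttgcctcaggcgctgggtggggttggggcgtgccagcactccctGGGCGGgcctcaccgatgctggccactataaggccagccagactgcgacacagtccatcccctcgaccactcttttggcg
S100a4: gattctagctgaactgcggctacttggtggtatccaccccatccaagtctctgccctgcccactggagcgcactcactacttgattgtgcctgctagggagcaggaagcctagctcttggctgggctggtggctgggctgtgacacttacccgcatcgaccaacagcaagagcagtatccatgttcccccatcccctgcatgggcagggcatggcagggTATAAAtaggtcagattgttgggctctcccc
S100b: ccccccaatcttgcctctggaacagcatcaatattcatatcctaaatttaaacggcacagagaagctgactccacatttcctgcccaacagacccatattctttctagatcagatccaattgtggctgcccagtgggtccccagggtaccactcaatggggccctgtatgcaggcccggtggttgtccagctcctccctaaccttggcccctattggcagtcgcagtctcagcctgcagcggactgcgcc
In the S100a6 window the capitals are 1 GGGCGG, the core of the GC box bound by Sp1-type factors, 80 bases before the start. The S100a4 window has capitals 31 bases before the start, where its 1 match, the TATA box sequence spelled TATAAA, begins. The S100b window held none of the motifs searched. Searched on both strands, GGGCGG was found in 30.5% and TATAAA in 12.9% of the 33469 RefSeq windows of this length. Among the 6 members with a window, GGGCGG was also present before S100a13 and, as an overlapping pair, before S100a11, and TATAAA before S100a9. None of the 6 windows held TGANTCA (AP-1, in 6.34% of all windows), TTCNNNGAA (STAT, 7.67%), AGAACA (a glucocorticoid receptor element core, 17.5%), CACGTG (E-box, 5.59%) or TGACNNNGC (antioxidant response element core, 10.1%). GC content was 62.4% for S100a6, 57.6% for S100a4 and 54.8% for S100b, against a median of 51.2% over all windows. These matches are of letters only and describe no binding.

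S100a10, also known as p11 and the partner of Anxa2 in a membrane-associated complex, had the next most separated groups. Its signals (1386890_at, Entrez gene 81778) were 459.7, 441.7, 512.2, 434.1 and 380 in the dehydrated pools. The controls gave 360.9, 373.1, 380, 351.2 and 312.1. The groups met at 380, the value of both the lowest dehydrated and the highest control pool. Means were 446 ± 47.7 and 355 ± 26.7 (SD, n = 5 each), a log2 change of 0.32 ± 0.08 (SE) that did not pass. It did pass without dehydrated array 5, without dehydrated array 5 and control array 1 together, and with the brightest 40% of probe sets kept, and its change ran from 0.27 to 0.38 over the alternatives. With the RNA integrity ratio in the fit the change was 0.27 and did not pass. Without dehydrated array 5 and control array 1, the lowest dehydrated ratio (2.05) lay above the highest control ratio (1.91). The ratio and the group then cannot be told apart. Anxa2 itself had a log2 difference of 0.08, with mean signals of 747 ± 137 and 698 ± 58.4 (SD, n = 5 each, limma adjusted p = 0.740).

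S100a13, which takes part in the export of Fgf1 from cells, showed a similar pattern at lower brightness. The dehydrated pools read 205.9, 157.3, 192.9, 151.2 and 132.5 (1375954_at, Entrez gene 295213). The control pools read 127, 141.4, 125.5, 149.1 and 93.4. Dehydrated pool 5 fell among the controls, and the other 4 dehydrated pools lay above all of them. The means were 168 ± 30.5 and 127 ± 21.4 (SD, n = 5 each), with a log2 change of 0.39 ± 0.14 (SE) that passed only when dehydrated array 5 was left out. Adding the RNA integrity ratio to the fit gave 0.28.

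S100a4, known for its links to cell motility and to fibroblasts, had groups that overlapped widely. Dehydrated signals were 155.5, 127.5, 132.9, 150.5 and 209.5 (1367846_at, Entrez gene 24615), and control signals were 104.2, 161.4, 146.2, 126.3 and 104.1. The single highest pool was dehydrated 5, while controls 2 and 3 lay among the dehydrated values. Means were 155 ± 32.5 and 128 ± 25.4 (SD, n = 5 each), with a log2 change of 0.26 ± 0.14 (SE) that did not pass. Without dehydrated array 5 and control array 1 the change was 0.08, and with the ratio covariate 0.39.

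S100a1, a regulator of calcium cycling in muscle that is also made in nervous tissue, had the smallest change of the kept members with a positive one. Its dehydrated signals were 267.5, 244, 267.4, 288.1 and 250.2, and its control signals 242.6, 256.3, 263.6, 247.8 and 254 (1388456_at, Entrez gene 295214). Dehydrated pools 1, 3 and 4 lay just above the highest control, and the other 2 lay within the control range. Means were 263 ± 17.3 and 253 ± 8.05 (SD, n = 5 each), and the log2 change was 0.06 ± 0.07 (SE).

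S100a11, which binds Anxa1, had dehydrated pools on both sides of the controls. The dehydrated values were 513.3, 451.5, 584.8, 667.5 and 901.3 (1375170_at, Entrez gene 445415). Control values were 655.6, 523.6, 671.1, 648.2 and 637.4. Dehydrated pools 1 and 2 lay below every control and pool 5 above every control, so the dehydrated range enclosed the control range. Means were 624 ± 175 and 627 ± 59.2 (SD, n = 5 each), and the log2 change of -0.04 ± 0.14 (SE) ran from -0.19 to 0.09 over the alternatives, so it had no settled sign. RefSeq lists 5 pseudogenes named for S100a11 and 2 S100a11-like genes, and whether this probe set reads them was not tested.

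S100b, the glial member, gave lower values in some but not all dehydrated pools. Dehydrated signals were 314.1, 363.2, 420.2, 449.9 and 474.1 (1386903_at, Entrez gene 25742). Control signals were 491.3, 419.9, 492, 412.1 and 515.7. Dehydrated pools 1 and 2 were below all controls, and the other 3 were inside the control range. Means were 404 ± 65.2 and 466 ± 46.9 (SD, n = 5 each), and the log2 change of -0.21 ± 0.11 (SE) did not pass in any alternative. Gfap, the glial filament gene, rose in the same arrays by 2.38 ± 0.21 on the log2 scale (SE, limma adjusted p = 5.30e-06), from 52 to 97 in control pools to 247.6 to 521.5 in dehydrated pools. The Gfap groups lay apart, while those of S100b overlapped, and the difference between the genes was not tested. Gfap had the largest change of the 11 kept pituicyte and astroglial markers, of which 8 had positive changes and 3 passed. Aqp4 (-0.22), Rax (-0.19) and Fabp7 (-0.23) had negative log2 changes near that of S100b, and none of them passed.

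S100a8 and S100a9, which pair as calprotectin in neutrophils and monocytes and can act on Tlr4 and Ager, were near the floor of the signal range. S100a8 ranged from 0.7 to 9.2 in the dehydrated and from 0.8 to 8.4 in the control pools (1368494_at, Entrez gene 116547), with means of 4.84 ± 3.75 and 4.52 ± 3.15 (SD, n = 5 each). S100a9 ranged from 6.8 to 13.6 and from 1.9 to 14.2 (1387125_at, Entrez gene 94195), with means of 10.3 ± 2.69 and 7.74 ± 5.56. Both pairs of groups overlapped, and both genes stood below the filter, so no change is given. All 8 neutrophil markers with a probe set were also below the filter, with summed signals of 48.2 to 79.6 in dehydrated and 47.1 to 83.8 in control pools.

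Over the 7 kept members, 5 had positive changes and 2 negative, with a median of 0.26, or 0.16 without S100a6, beside a median of 0.0073 over the 10593 genes tested. The members were also set beside the RNA integrity ratio. In the pool with the lowest integrity ratio of each group, dehydrated 5 and control 5, S100a6, S100a10 and S100a13 had the lowest and S100b the highest signal of the group. In the pools with the highest ratio, dehydrated 2 and control 1, S100a10 and S100a13 were in the middle of both groups. S100a6 was the second highest in dehydrated 2 and the second lowest in control 1. S100b was the second lowest in dehydrated 2 and in the middle in control 1. S100a4 and S100a11 had the highest dehydrated signal in dehydrated 5 and the lowest in dehydrated 2. Among controls, S100a4 was the lowest in control 5 and the second lowest in control 1. S100a11 was the second lowest in control 5 and the second highest in control 1. With this ratio in the fit S100a6 changed by 1.23, S100a10 by 0.27 and S100b by -0.14, and no relation of single pools with the ratio was tested.

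**Figure D3:**
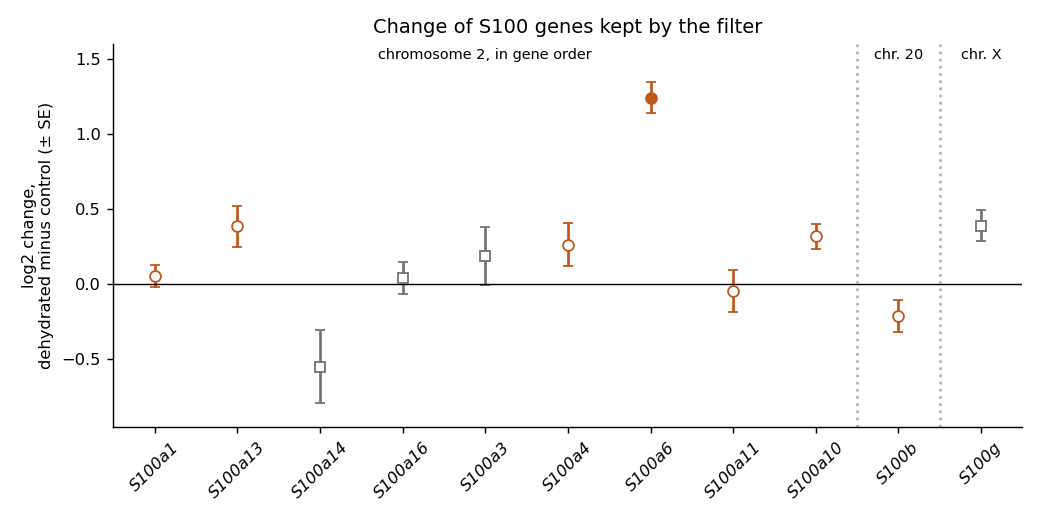
Log2 change (dehydrated minus control, ± SE) of the S100 genes kept by the filter, in their order on chromosome 2 and then on chromosomes 20 and X; circles are the members and squares the other S100 genes, and filled symbols passed the adjusted p threshold of 0.05. S100a6, at 1.24, is the only filled symbol, and the kept gene before it, S100a4, lies at 0.26.

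The S100 genes outside the chosen 9 were measured for comparison, and none of the 4 kept passed (1 was higher and 1 lower at an unadjusted p under 0.05). Beside the 3.19% of all genes tested that passed, 4 genes are too few to show a difference. S100g, the vitamin D-dependent calcium carrier calbindin-D9k, read 611.1, 749.4, 811.5, 811.1 and 583 in dehydrated pools and 538.1, 604, 567, 540.4 and 454.1 in controls. The groups overlapped only through dehydrated pool 5 and control pool 2. Its means were 713 ± 109 and 541 ± 55.2 (SD, n = 5 each), a log2 change of 0.39 ± 0.10 (SE, limma adjusted p = 0.0581), and it passed in 5 of 21 alternatives (adjusted p 0.0109 to 0.162). S100a16 (0.04, adjusted p = 0.881) and S100a3 (0.19, adjusted p = 0.666) had log2 changes within their spread. S100a14 had a log2 change of -0.55 (adjusted p = 0.255), while its other probe set was below the filter and gave 0.32. The kept S100a14 probe set was dim, with means of 21.3 ± 7.46 with dehydration and 33.2 ± 9.73 without (SD, n = 5 each). Its dehydrated mean lay below 22.4, the lowest level kept by the filter. S100a5, S100a7l2 and S100vp were below the filter, with no mean signal above 4.84.

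In gene order on chromosome 2, S100a1, S100a13, S100a14, S100a16, S100a3, S100a4, S100a5, S100a6, S100a7a, S100a8, S100a9, S100a7l2 and S100vp follow in turn, with a few other genes between, and S100a11 and S100a10 come after another 77 genes. The changes of members in this order were 0.06, 0.39, 0.26 and 1.24 for S100a1, S100a13, S100a4 and S100a6, and -0.04 and 0.32 for S100a11 and S100a10. Of the genes directly beside S100a6, S100a5 was below the filter (mean signals of 1.68 and 1.74) and S100a7a had no probe set with a single symbol. Beside S100b, Dip2a had a log2 change of 0.03 (limma adjusted p = 0.908). Most other genes next to an S100 gene that is not itself in the family had no such probe set. One that did was F2rl1, beside S100z, at 0.13 (adjusted p = 0.773).

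Most genes for proteins that S100 proteins bind, or for their receptors, did not pass. That does not show that they were unchanged. Of 38 listed genes, 24 were kept, of which 2 rose, none fell and 22 did not pass (4 were higher and 3 lower at an unadjusted p under 0.05 in limma), with a median log2 change of 0.02, beside 3.19% of all genes tested passing in either direction. The 2 that rose were Anxa3 and Anxa1, both phospholipid-binding annexins. Anxa3 rose by 0.39 ± 0.07 on the log2 scale (SE, limma adjusted p = 0.00945), from 675 ± 44.2 to 885 ± 76.0 (SD, n = 5 each). Anxa1, an anti-inflammatory annexin induced by glucocorticoids and a partner of S100a11, rose by 0.37 ± 0.08 (SE, adjusted p = 0.0165), from 394 ± 22.2 to 512 ± 47.1. For both genes the 5 dehydrated pools lay above the 5 controls, as they did for 2.78% of all kept probe sets. Neither passed without an intensity trend in the variance model (adjusted p up to 0.0684 over all alternatives of Anxa1, and 0.0557 for Anxa3), and Anxa1 also not without dehydrated array 3.

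Cacybp, the calcyclin-binding protein that takes its name from S100a6, did not pass. It read 817.9, 895.2, 611.7, 729.9 and 587.5 in the dehydrated pools and 751.5, 789.6, 649.7, 663.4 and 595.2 in the controls. Dehydrated pools 1 and 2 lay above every control and pool 5 below every control, with a log2 difference of 0.07 ± 0.11 (SE, limma adjusted p = 0.811). The receptors Ager (-0.05, adjusted p = 0.907) and Tlr4 (0.02, adjusted p = 0.974) were dim, with signals of 18.9 to 32.3 and 21.7 to 39.1 over all 10 pools. Ahnak, the large scaffold bound by the S100a10 and Anxa2 complex, had no probe set with a single symbol.

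Among 44 calcium-binding EF-hand genes outside the S100 family, 31 were kept, of which 2 rose, 3 fell and 26 did not pass, with a median log2 change of 0.0057, again beside 3.19% of all genes passing. The calcium buffer Calb1 fell by 0.61 ± 0.09 on the log2 scale, from 383 ± 56.4 to 247 ± 11.9 (SD, n = 5 each, limma adjusted p = 0.00144). Nucb2, the nesfatin precursor, fell by 0.51 ± 0.09 (SE, adjusted p = 0.00486), from 757 ± 55.0 to 532 ± 75.2. Tesc, a regulator of sodium-proton exchange, fell by 0.60 ± 0.12 (adjusted p = 0.0118). The neuronal calcium sensor Vsnl1 rose by 0.55 ± 0.13 (adjusted p = 0.0299), with overlapping groups. Actn1, an actin cross-linker named after its value was seen, rose by 0.38 ± 0.09 (adjusted p = 0.0300). Vsnl1 lost its call in 9 of 21 alternatives (adjusted p up to 0.0923) and Actn1 in 10 (up to 0.611, with its probe sets averaged).

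**Figure D4:**
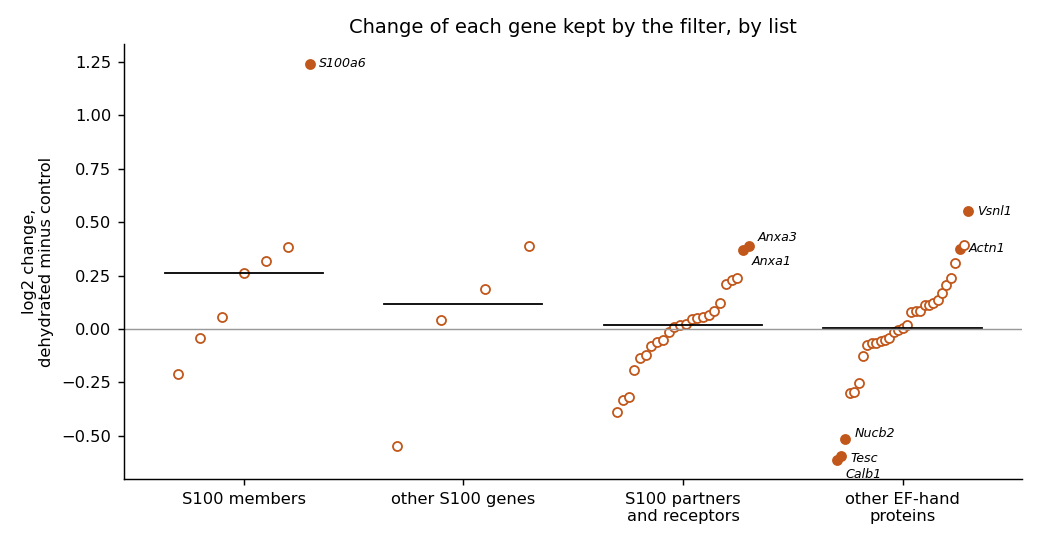
Log2 change (dehydrated minus control) of each gene kept by the filter in 4 lists, sorted by change within each list; filled points passed the adjusted p threshold of 0.05 and black lines are list medians. S100a6 at 1.24 lies above every partner, receptor and other EF-hand gene plotted, the highest of which is Vsnl1 at 0.55.

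Markers of several cell types differed between the groups along with S100a6, beside 2.31% of all genes tested that passed as higher. In the fibroblast and meningeal list 4 of 11 kept genes rose, with no falls, and their summed signal was 10818 to 13312 in dehydrated and 7926 to 8744 in control pools. Of 11 kept pituicyte and astroglial markers 3 rose, with sums of 7354 to 8269 and 6566 to 7310. Of 8 kept endothelial markers 3 rose, with sums of 1246 to 1504 and 850 to 1144. Of 10 kept macrophage and microglial markers 2 rose (1667 to 2353 and 1457 to 1905). In that list 8 log2 changes were positive, while Cd68 (-0.74) and Mrc1 (-0.32) were negative and did not pass. Of 4 kept Schwann cell and myelin markers 1 rose (1316 to 1441 and 1050 to 1209), with Mag, Sox10 and Prx below the filter. Each sum takes in every listed gene with a probe set, whether kept or not. The sums of the groups did not overlap for the fibroblast, pituicyte, endothelial and Schwann cell lists, and overlapped for the others. For the pituicyte list the gap was narrow, 7354 against 7310. A sum follows its brightest or most changed genes and does not show that a whole list rose. In the Schwann cell list Pmp22, which rose, gave 758.3 to 818.9 in dehydrated and 506.7 to 655.1 in control pools. Its other kept genes did not pass, with log2 changes of -0.03 for Mbp, -0.33 for Mal and 0.25 for Cnp. Of the 11 kept pituicyte and astroglial markers, 8 did not pass. Of 5 kept melanotroph markers 1 fell (5404 to 6974 and 6280 to 6582), and 1 of 6 anterior lobe hormones fell (4824 to 9379 and 2574 to 7950). Among all 10593 genes tested, 93 passed as lower. The part of these cells in the change of S100a6 or of any other S100 gene was not tested.

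The 5 genes whose profiles over the 10 arrays were most like that of S100a6 were Isg15, Hsd11b1, Mgp, Cd14 and Gpx2. Likeness was the root mean square difference of log2 values, each gene centred on its own mean, and takes in the difference between groups as well as the order of pools. It was 0.169 for Isg15, an interferon-induced ubiquitin-like modifier whose signal was 268.5 to 530 in dehydrated and 115 to 183.9 in control pools. It was 0.210 for Hsd11b1, which regenerates active glucocorticoid (502.1 to 695.4 and 216.2 to 286.4), and 0.211 for Mgp, an inhibitor of calcification (4076 to 6032 and 2457 to 2637). Cd14, the endotoxin co-receptor, was at 0.227 (160.4 to 211.1 and 76.8 to 103), and Gpx2, a glutathione peroxidase, at 0.230 (100.2 to 168.2 and 59.2 to 81.4). That none of the 5 had overlapping groups follows from their choice by likeness to S100a6 and is no further result. They are listed by this measure alone, with no test.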

How the data were processed

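RNA of 10 pools was amplified with a commercial kit and hybridised to 1 array each, per the labels' protocols. The deposited table holds linear intensity values, 1 for each probe set on each array. The authors made these intensity values with GCOS 1.2, per the submitters' processing notes; algorithm, scaling target and detection calls are not given in the sources used here. The files' trimmed means near 100 show common scaling, and no further scaling was applied. Signal over background is unknown. All sample columns were used.

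Of 31099 probe sets, 57 controls were left out. The 60% of the rest with the highest mean log2(signal + 5), 18625 in number, were kept. This transform understates changes of dim genes. Groups were taken from the sample labels, and array numbers are names only, given in deposition order. The 2 groups were tested in R 4.3.3 by limma 3.58.1 (lmFit, eBayes with an intensity trend, two-sided, Benjamini-Hochberg over all kept probe sets); tables and figures used Python 3.11.15, numpy 2.4.6, pandas 2.3.3 and matplotlib 3.10.9. The fit was tested on simulated data with known changes. A gene was read from its kept probe set of highest mean. Symbols came from the platform annotation, which can be old, and probe sets with several symbols named no gene.

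Named are all members and other S100 genes, up to 4 passing genes by size in each of the partner and other EF-hand lists, Anxa2, Ahnak, Cacybp, Ager and Tlr4, genes beside S100 genes, and the 5 most like S100a6. Members and lists were chosen with earlier results of these data known. Gfap, Aqp4, Rax, Fabp7, Pmp22, Mbp, Mal, Cnp, Cd68 and Mrc1 were named after their values were seen. The GC box, E-box and antioxidant response element motifs were searched after the other 4 had been. Protein sequences were not used here. Gene order and upstream sequences are from RefSeq, GRCr8, and are independent of the arrays. Alternatives changed normalization, pseudocount, filter, variance model, the integrity covariate, the probe set of a gene, or left out arrays.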

Additional observations from a re-analysis of the deposited data

Results flagged for a closer look

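In 3 of the 64 groups of 5 pools examined, 1 pool stood apart by Dixon's ratio of its gap to the group's range, and chance gives about 1 such group in 20. The ratio was taken on log2(signal + 5), whereas the signals printed beside it are linear, on which it differs. Control pool 2 was the lowest for S100a11 (ratio 0.792; 523.6 against 637.4 to 671.1 in the other controls). Dehydrated pool 5 was the lowest for S100a3 (ratio 0.740; 20.9 against 34.1 to 40.2). Control pool 3 was the highest for Isg15 (ratio 0.760; 183.9, the lowest control being 115).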

How the results depend on the processing

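The change of S100a6 passed in all 20 alternatives, and the changes of S100a1, S100a4, S100a10, S100a13 and S100b kept their sign in all 20. The number of S100 probe sets passing was 1, and became 2 with the brightest 40% kept, 2 without dehydrated 5 and control 1 together (the lowest 3′ over 5′ ratio of the dehydrated and the highest of the control group), and 1 to 3 with 1 array left out, the 3 being without dehydrated 5. Among all probe sets 458 passed, against 240 without an intensity trend, 1398 without dehydrated 5 and control 1, and 218 to 1156 with 1 array left out; the counts moved by over 1.5 times without dehydrated 1, 3 or 5 or control 2, 3, 4 or 5. The share of calls that were higher was 68.1% (312 against 146), 80.1% with arrays centred on their median (456 against 113), 56.3% without dehydrated 5 (651 against 505), and 47.7% without dehydrated 5 and control 1 (667 against 731). Of the partners and receptors, 2 passed, 0 without an intensity trend in limma (7 at an unadjusted p under 0.05), 5 without dehydrated 5 and control 1, and 1 to 5 with 1 array left out (1 without dehydrated 3, 5 without dehydrated 5). Of the other EF-hand genes, 5 passed, 3 with no filter, 8 without dehydrated 5 and control 1, and 3 to 8 with 1 array left out (3 without dehydrated 1, 2 or 3 or control 3 or 5, 8 without dehydrated 5). The cause was not tested. No paired analysis was possible because the labels give no replicate numbers that groups share. Signal over background is unknown, so values of S100a8 and S100a9 may be background.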
